A study of Homo sapiens with 3 samples.

Results

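The cytosolic ribosomal protein genes encode the protein part of the ribosome, and 83 of them were followed in 3 single-cell RNA libraries of Fadu, a human line from a squamous carcinoma of the hypopharynx, and its drug-resistant derivative. Genes were taken by symbol (RPL or RPS with a number, RPLP0 to RPLP2 and RPSA, with the paralogs whose symbols end in L, L1 or AL), without pseudogenes, antisense genes, the kinases named RPS6K and Y-linked copies. The symbol rule matched 85 of 58735 features, and 83 of these, 51 of the large and 32 of the small subunit, had a mean of at least 20 CPM (counts per 1e6 UMIs of the library's kept cells) over the 3 libraries. That level chose the members and is not a finding. RPL17, at a mean of 48.3 CPM, lay just inside the limit, while RPL3L at 0.334 CPM and RPL10L, with no UMI, lay outside it.

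The libraries, 1 for each of the 3 groups, were of TPF-resistant Fadu cells under TPF + Cinobufotalin (the combination library), of the same resistant cells under TPF alone (the resistant TPF library) and of parental Fadu cells under Cinobufotalin alone (the Fadu library). TPF is a combination of paclitaxel, cisplatin and 5-fluorouracil, and the resistant line was derived from Fadu under these drugs. Cinobufotalin is a bufadienolide, a steroid of toad venom. All 3 libraries came from drug-treated cells, the labels give no dose or time and do not say whether the resistant line is a clone, and cells without drug were not analysed here. No group had a replicate library, so no test between groups was possible, and differences between libraries and between treatments cannot be told apart. Intervals in brackets are 95% Clopper-Pearson intervals and hold counting error alone. The pair of resistant libraries differs in 1 labelled factor, while either resistant library differs from the Fadu library in line and in drug, which cannot be told apart. The 2 comparisons with the Fadu library share that library.

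Kept cells numbered 7525 in the combination library, 4862 in the resistant TPF library and 6123 in the Fadu library, with 134802289 UMIs in the combination library, 135176387 UMIs in the resistant TPF library and 165847771 UMIs in the Fadu library. All 10 squamous epithelial markers were measured at 5 CPM or more, with summed levels of 3261 CPM in the combination library, 4217 CPM in the resistant TPF library and 5360 CPM in the Fadu library. None of 5 fibroblast and 5 immune markers reached 5 CPM, and COL1A2 and LUM had no UMI. Of 3 erythroid markers 1, HBA1, reached it, at 9.53 CPM in the combination library, 12.1 CPM in the resistant TPF library and 5.71 CPM in the Fadu library. At most 13 cell barcodes were shared between any 2 libraries. The median share of MALAT1, a long noncoding RNA of the nucleus, among a cell's UMIs was 0.731% in the combination library, 0.795% in the resistant TPF library and 0.0892% in the Fadu library, and the median mitochondrial share 3.72% in the combination library, 3.98% in the resistant TPF library and 3.80% in the Fadu library. Since MALAT1 moved with the ribosomal protein share among cells, its values stand beside the results below, and its part in them was not tested.

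The ribosome has a small subunit that reads the mRNA and a large subunit that joins amino acids, and each holds 1 copy of most of its proteins, so cells make these proteins in step. Most ribosomal protein mRNAs begin with a terminal oligopyrimidine (TOP) tract, a C followed by a run of pyrimidines at the cap. Through it the kinase mTORC1 and the RNA-binding protein LARP1 control their translation and stability together. Excess ribosomal proteins are degraded, and RPL5 and RPL11, in a particle with 5S ribosomal RNA, bind MDM2 when assembly is disturbed. In squamous carcinoma, as in other fast-growing cells, ribosomal protein mRNAs are among the most abundant in the cell.

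The pyrimidine tract is shown for genes on which the results turn, in windows of 15 bases before and 15 bases from the RefSeq start of each gene (GRCh38.p14), 5′ to 3′ on the strand of the gene. Capitals mark the tract, a run of at least 5 C or T that begins with C and starts within 5 bases of the annotated start. The first 5 are RPS12 and RPLP1, the highest members, RPL39, one of those higher in the combination library than in the resistant TPF library, and RPL12 and RPL10A, the lowest of the resistant TPF library against the Fadu library over all kept cells. RPL3, with one of the longest coding sequences, follows. The last 6 are paralog pairs, in which RPL26L1 and RPS27L have no tract by this rule.
RPS12 (chr6:132814554-132814583, + strand): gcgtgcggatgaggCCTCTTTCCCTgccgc
RPLP1 (chr15:69452803-69452832, + strand): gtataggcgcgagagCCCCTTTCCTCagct
RPL39 (chrX:119791616-119791645, - strand): ttcttccgccagCTTCCCTCCTCTTCCTTT
RPL12 (chr9:127451392-127451421, - strand): ccgcgcgatttccggCCTCTCggctttcgg
RPL10A (chr6:35468386-35468415, + strand): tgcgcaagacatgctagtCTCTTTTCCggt
RPL3 (chr22:39319609-39319638, - strand): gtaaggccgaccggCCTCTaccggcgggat
RPL22 (chr1:6199581-6199610, - strand): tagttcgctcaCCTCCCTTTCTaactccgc
RPL22L1 (chr3:170870181-170870210, - strand): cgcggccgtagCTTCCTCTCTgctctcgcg
RPL26 (chr17:8383179-8383208, - strand): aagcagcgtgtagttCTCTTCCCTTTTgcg
RPL26L1 (chr5:172958714-172958743, + strand): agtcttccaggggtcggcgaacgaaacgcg
RPS27 (chr1:153990747-153990776, + strand): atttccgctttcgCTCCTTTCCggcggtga
RPS27L (chr15:63157463-63157492, - strand): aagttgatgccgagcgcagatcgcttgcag

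Of the 83 genes, 67 were in the RefSeq promoter table, and 52 of these (77.6%) held the tract, against 21.9% of 15776 other protein-coding genes. A C at the annotated start itself, first of at least 5 pyrimidines from there on, stood in 43 (64.2%) of the ribosomal protein genes and 4.35% of the others, where the run may begin before it. Over the whole 300-base promoter (250 bases before the start to 50 after it) and on either strand, CCGGAAG, letters of ETS factor sites, stood in 34.3% of the ribosomal protein promoters and 14.1% of the others, and AAGATGG, letters of YY1 sites, in 13.4% and 6.37%. The 2 motifs were searched independently, and a match describes the sequence only. The 52 genes with the tract and the 15 without it had median log2 ratios of 0.058 and 0.061 for the combination library over the resistant TPF library, of -0.46 and -0.34 for the resistant TPF library over the Fadu library, and of -0.35 and -0.28 for the combination library over the Fadu library. The ranges of the genes with and without the tract overlapped in every pair.

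Ribosomal protein genes gave 15.1% (15.14% to 15.16%) of all UMIs in the combination library, 14.2% (14.21% to 14.23%) in the resistant TPF library and 19.2% (19.23% to 19.24%) in the Fadu library. Of the 83 genes, 66 were highest in the Fadu library, 16 in the combination library and 1, RPL7L1, in the resistant TPF library. The same count was not made over all genes. Of the ribosomal protein UMIs the small subunit genes gave 39.5% in the combination library, 39.6% in the resistant TPF library and 38.6% in the Fadu library, so the balance of the subunits moved little while the total moved more. The 10 most abundant genes gave 35.0% of them in the combination library, 32.9% in the resistant TPF library and 35.5% in the Fadu library.

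**Figure D1:**
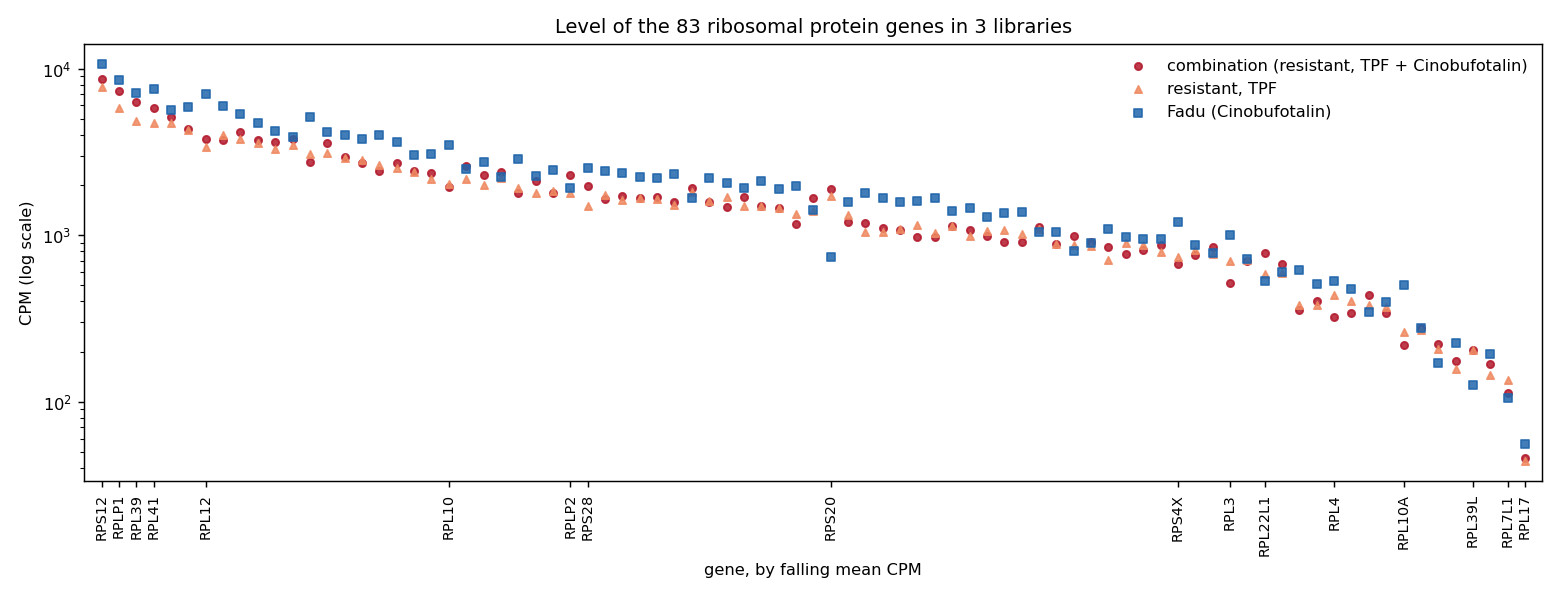
Level of each of the 83 ribosomal protein genes (CPM, log scale) in the combination (circles), resistant TPF (triangles) and Fadu (squares) libraries, with genes ordered by their mean over the libraries and some of them named on the axis. The Fadu squares lie on top for 66 genes, and RPS20 stands out with its square well below the other symbols.

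The most abundant member was RPS12, a protein of the small subunit head, at 8673 CPM in the combination library, 7704 CPM in the resistant TPF library and 10670 CPM in the Fadu library. RPLP1, an acidic protein of the stalk that recruits translation factors, followed at 7370 CPM in the combination library, 5778 CPM in the resistant TPF library and 8536 CPM in the Fadu library. The next 2 encode very small proteins of the large subunit. RPL39, at the exit tunnel, had 6329 CPM in the combination library, 4831 CPM in the resistant TPF library and 7096 CPM in the Fadu library, and RPL41 had 5831 CPM in the combination library, 4714 CPM in the resistant TPF library and 7495 CPM in the Fadu library. The other 6 of the 10 highest were RPL30, RPS18, RPL12, RPL7A, RPS23 and RPL32, with levels between 3366 and 7037 CPM. At the low end stood RPL17 at 45.8 CPM in the combination library, 43.9 CPM in the resistant TPF library and 55.4 CPM in the Fadu library. In all, the genes spanned over 2 orders of magnitude although their proteins are made in near-equal numbers. A UMI of this 3′ assay stands for a captured transcript and was not divided by length, and levels of different genes also depend on how their reads map. Many members have processed pseudogenes with near-identical sequence, such as RPL23A with 91, RPSA with 74 and RPL21 with 66 annotated pseudogenes, and the sources used here do not give how shared reads were counted. The 1145 annotated ribosomal protein pseudogenes held UMIs equal to 0.893% of those of the genes themselves in the combination library, 0.972% in the resistant TPF library and 0.662% in the Fadu library. RPL17, RPL36A and RPS10 overlap annotated readthrough genes, so their levels are uncertain.

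The pair of resistant libraries bears on the effect of adding Cinobufotalin to TPF. In the combination library the summed level of the ribosomal protein genes was 151494 CPM, against 142203 CPM in the resistant TPF library, a log2 ratio of 0.091 (0.090 to 0.092), while the median of all 5700 genes at 20 CPM was -0.060. The median of the 83 genes was 0.051, with 50 above 0 and 33 below, beside 2069 above and 3631 below among all 5700 genes. None of the 83 was 1.5-fold higher or lower, beside 0.0877% of all genes higher by that fold and 0.158% lower. At 1.2-fold, 6 were higher and 3 lower, beside 3.26% and 11.2% of all genes. Among cells matched on MALAT1 (0.3% to 1% of UMIs, with 2% to 8% mitochondrial UMIs and at least 10000 UMIs) the summed log2 ratio was 0.015. The median of the 83 genes was then -0.034, below the median gene at -0.023. With cells under 0.05% MALAT1 left out the summed ratio was 0.033 and the median of the 83 genes -0.0050, beside -0.025 for the median gene.

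Members did not move in step in this pair. Over all kept cells the highest was RPL22L1, a paralog of the RNA-binding protein RPL22, at 785 CPM in the combination library and 587 CPM in the resistant TPF library, a log2 ratio of 0.42 (0.41 to 0.43). RPS28, a small protein near the mRNA exit, had 1980 CPM with Cinobufotalin added and 1495 CPM without it, a ratio of 0.41 (0.40 to 0.41). Small proteins of the large subunit came next, with RPL39 at 0.39 and RPL41 at 0.31. The acidic stalk proteins RPLP2 (2305 against 1782 CPM) and RPLP1 had ratios of 0.37 and 0.35, while their anchor RPLP0 had 0.022 and RPL12 at the base of the stalk 0.17. With cells thinned to 5000 UMIs RPLP2 was the highest, at 0.50.

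The lowest 2 were the members with the longest coding sequences, both core proteins of the large subunit. RPL4, which lines the exit tunnel, had 322 CPM in the combination library and 437 CPM in the resistant TPF library, a log2 ratio of -0.44 (-0.46 to -0.42). RPL3, which reaches the peptidyl transferase centre, had 517 against 698 CPM, a ratio of -0.43 (-0.45 to -0.42). RPL7L1, a nucleolar relative of RPL7 that takes part in ribosomal RNA processing, followed at -0.26, with RPL10A at -0.25, RPL7 at -0.25 and RPL6 at -0.25. In the 5S particle RPL5 had a ratio of -0.21 and RPL11 one of 0.087. RPS6, the S6 kinase target, had -0.098, RPSA, also known as the laminin receptor precursor, -0.11, and RPS27A, made as a fusion with ubiquitin, 0.12. These 12 highest and lowest members kept their sign under every alternative processing tried.

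Across the 83 genes, the log2 ratio of the combination library over the resistant TPF library was lower for genes with longer coding sequences. Pearson's r with log2 coding length was -0.70 and Spearman's rho -0.73 over 83 genes, which share 2 libraries and are not independent. By length, the 11 members with coding sequences under 300 bases had a median ratio of 0.12, the 30 of 300 to 450 bases one of 0.15, the 19 of 450 to 600 bases one of 0.061 and the 23 of 600 bases or more one of -0.12. Of the last class 3 were above 0, against 10 of the 11 shortest. Among other protein-coding genes at 20 CPM, 1209 of 4130 in the longest class and 140 of 192 in the shortest were above 0. The other protein-coding genes at 20 CPM had medians of 0.12 (192 genes), 0.047 (399), -0.039 (500) and -0.086 (4130, up to 5000 bases) in the same length classes, so short genes outside the set lay higher too. Over all 5435 such genes, of any length, r was -0.032 and rho 0.0023. Over the 3043 within the length range of the members, a range chosen after seeing the data, r was -0.42 and rho -0.37, weaker than in the 83 genes, and this difference was not tested. In the other pairs the members had r of -0.093 for the resistant TPF library and -0.40 for the combination library, each over the Fadu library, where the 5435 other genes had 0.49 and 0.44 and the 3043 had 0.24 and 0.068. Over 9 other choices of cells r stayed between -0.74 and -0.59 for the 83 genes, and the members under 450 bases had a median between 0.035 and 0.24.

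**Figure D2:**
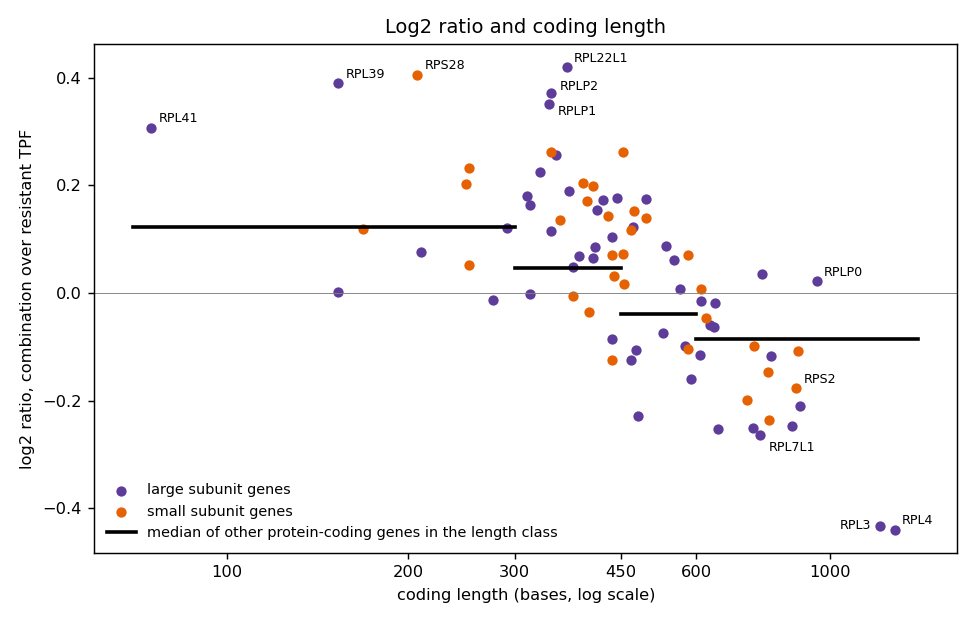
Log2 ratio of the combination library over the resistant TPF library (vertical axis) against coding length in bases (log scale) for the 83 genes, coloured by subunit, with black bars for the median of other protein-coding genes in 4 length classes. The bars step down with length, most points from 600 bases on lie below 0, and RPL3 and RPL4 lie lowest at the right.

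The resistant cells under TPF were next set against the parental cells under Cinobufotalin. The summed level was 142203 CPM in the resistant TPF library, against 192372 CPM in the Fadu library, a log2 ratio of -0.44 (-0.44 to -0.44), while the median gene of the 5700 had 0.31. Relative to the median gene the ribosomal protein genes were lower by 0.75 on the log2 scale, a difference that scaling cannot alter. The difference changed with the cells taken, to -0.50 with MALAT1 at 0.3% to 1% of UMIs and -0.40 at 0.05% to 0.2%. The median of the 83 genes was -0.41, with 9 above 0 and 74 below, beside 4222 above and 1478 below among all 5700 genes. At 1.5-fold 2 members were higher and 14 lower, beside 31.4% of all genes higher and 2.32% lower. At 1.2-fold 4 were higher and 55 lower, beside 54.1% and 10.8% of all genes. TMM factors move every gene of this pair by -0.57. With them 1 member was higher and 73 lower at 1.5-fold, beside 7.05% and 24.5% of all genes, and the median gene stood at -0.25.

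For the combination library over the Fadu library the summed levels were 151494 and 192372 CPM, a log2 ratio of -0.34 (-0.35 to -0.34), beside 0.25 for the median gene. Members at least 1.5-fold apart numbered 2 higher and 17 lower, beside 29.2% and 4.42% of all genes, and at 1.2-fold 6 higher and 51 lower, beside 49.3% and 14.9%. With TMM factors (a shift of -0.52) 1 was higher and 64 lower at 1.5-fold, beside 8.32% and 27.5% of all genes. MALAT1 differed between these libraries too, and among cells with MALAT1 at 0.3% to 1% of UMIs the summed ratio was -0.28 for the resistant TPF library and -0.27 for the combination library, each over the Fadu library. Among cells with MALAT1 at 0.05% to 0.2%, under the same limits on mitochondrial and total UMIs, it was -0.22 for the resistant TPF library and -0.15 for the combination library. For the combination library over the Fadu library the summed ratio less the median gene was -0.60 over all kept cells. It was -0.47 with MALAT1 at 0.3% to 1% and -0.24 at 0.05% to 0.2%.

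**Figure D3:**
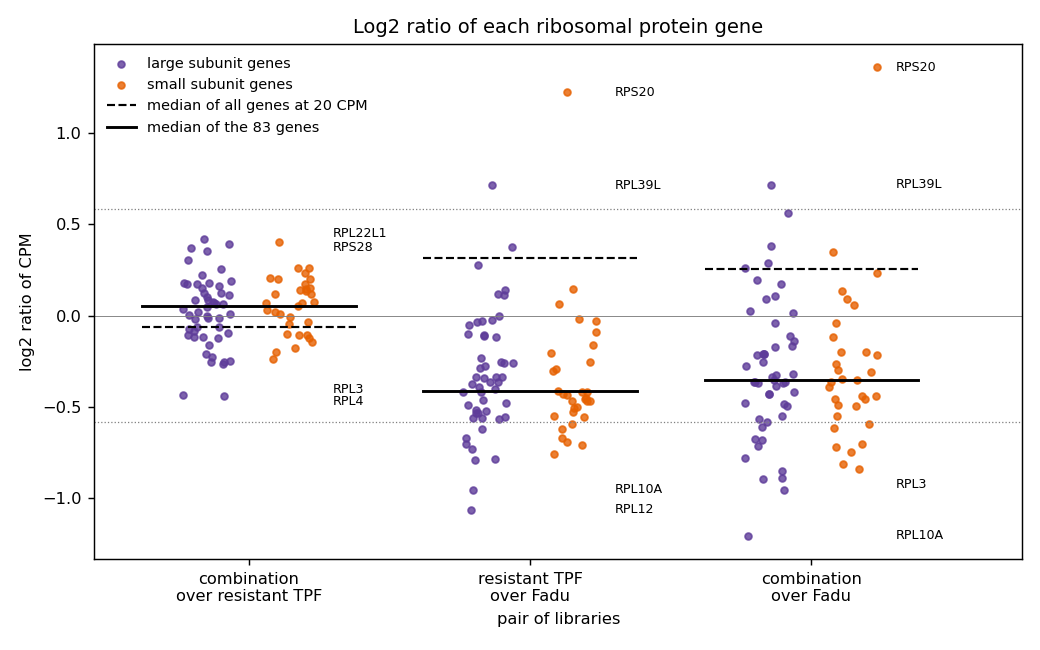
Log2 ratio of CPM for each of the 83 genes (points, large and small subunit side by side) in the 3 pairs of libraries, with the median of the 83 genes (solid bars), the median of all 5700 genes at 20 CPM (dashed bars) and the 1.5-fold limits (dotted lines). The solid bar lies above the dashed one between the resistant libraries, and below it in both pairs with the Fadu library, where RPS20 lies far above all other members.

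RPS20, a protein of the small subunit head on chromosome 8, ran furthest against the direction of most members in both pairs with the Fadu library. It had 1884 CPM in the combination library, 1714 CPM in the resistant TPF library and 734 CPM in the Fadu library. Its log2 ratio was 1.22 (1.21 to 1.23) for the resistant TPF library and 1.36 (1.35 to 1.37) for the combination library, each over the Fadu library. Under the alternatives these ratios ranged from 0.65 to 1.74 and from 0.84 to 1.86, and the lower ends came with TMM factors. The other 3 members on chromosome 8, RPL30, RPL8 and RPL7, had -0.26, -0.46 and -0.23 for the resistant TPF library over the Fadu library. Seen cell by cell, in cells with at least 500 ribosomal protein UMIs, RPS20 made up a median of 1.11% of the ribosomal protein UMIs in the combination library, 1.13% in the resistant TPF library and 0.337% in the Fadu library. The 5th percentiles of the resistant libraries (0.431% and 0.522%) lay above the Fadu median, and the 95th percentile of the Fadu library (0.926%) lay below both resistant medians. The distributions still overlapped, as that 95th percentile lay above the 25th percentiles of the combination (0.780%) and resistant TPF (0.848%) libraries.

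RPL39L, a paralog of RPL39 known for its part in male germ cells in mice, was the other member past 1.5-fold higher. It had 206 CPM in the combination library, 205 CPM in the resistant TPF library and 125 CPM in the Fadu library. Its log2 ratio over the Fadu library was 0.72 for each resistant library, and 0.15 and 0.20 with TMM factors for the resistant TPF and combination libraries. For the resistant TPF library over the Fadu library RPL7L1 was at 0.37, RPL26L1 at 0.28 and RPL22L1 at 0.14. For the combination library over it, RPL22L1 was at 0.56, RPL26L1 at 0.38 and RPL23, a large subunit protein that can bind MDM2, at 0.29. With TMM factors all of these but RPL22L1 in the last pair (0.041) turned negative, while relative to the median gene the order stays as it is.

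RPL12, at the base of the stalk, was the lowest member of the resistant TPF library over the Fadu library over all kept cells. It had 3798 CPM in the combination library, 3366 CPM in the resistant TPF library and 7037 CPM in the Fadu library, log2 ratios of -1.06 (-1.07 to -1.06) for the resistant TPF library and -0.89 for the combination library over the Fadu library. RPL10A, of the mobile stalk through which spent tRNA leaves, had 219 CPM in the combination library, 261 CPM in the resistant TPF library and 505 CPM in the Fadu library, with ratios of -0.95 for the resistant TPF library and -1.21 (-1.22 to -1.19) for the combination library. Among cells with MALAT1 at 0.3% to 1% RPL12 had -0.83 and RPL10A -0.90 for the resistant TPF library, and at 0.05% to 0.2% they had -0.60 and -1.01, so the order of the lowest members changed with the MALAT1 of the cells. Both lay lower than the set as a whole in both resistant libraries. The lowest members of the resistant TPF library further held RPL36 (-0.79), RPL10 (-0.79), which joins the large subunit in its last steps of maturation, RPS28 (-0.76) and RPL19 (-0.73). Those of the combination library further held RPL3 (-0.96), RPL19 (-0.89), RPL10 (-0.85) and the X-linked RPS4X (-0.84).

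**Figure D4:**
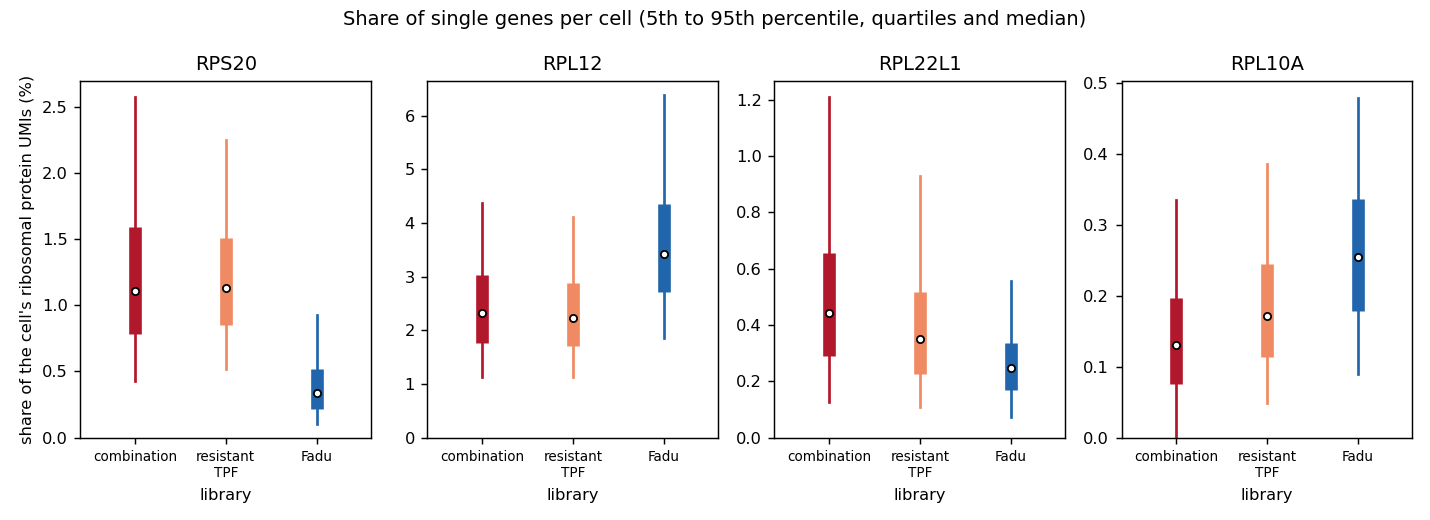
Share of a cell's ribosomal protein UMIs (%) taken by RPS20, RPL12, RPL22L1 and RPL10A in cells with at least 500 ribosomal protein UMIs, as 5th to 95th percentile (thin lines), quartiles (thick bars) and median (circles) per library. RPS20 and RPL22L1 lie higher in both resistant libraries than in the Fadu library, and RPL12 and RPL10A lie lower.

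The stalk proteins RPLP0 to RPLP2 and the 5S particle lay inside the range of the other members. RPL12 lay outside it only for the resistant TPF library over the Fadu library, over all kept cells. For the resistant TPF library over the Fadu library RPLP1 had -0.56, RPLP0 -0.34 and RPLP2 -0.11, and for the combination library they had -0.21, -0.32 and 0.26. The signs of RPLP1, RPLP2, RPL39 and RPS28 in the last pair depended on the processing: among cells with MALAT1 at 0.05% to 0.2% they had 0.24, 0.79, 0.18 and 0.14, and with TMM factors -0.73, -0.26, -0.69 and -0.87. RPL5 and RPL11 had -0.28 and -0.52 for the resistant TPF library and -0.50 and -0.43 for the combination library over the Fadu library. The 19 members that are Diamond-Blackfan anaemia genes, the cause of an inherited failure of red cell production, had medians of 0.084 between the resistant libraries, -0.40 for the resistant TPF library and -0.37 for the combination library, close to the medians of all 83. Of the large and small subunit genes, the medians were -0.36 and -0.44 for the resistant TPF library over the Fadu library and 0.035 and 0.070 between the resistant libraries. By chromosome, for the resistant TPF library over the Fadu library, medians were taken where a chromosome held at least 3 members. They ran from -0.62 for the 4 on chromosome X to -0.097 for the 4 on chromosome 2. The 12 on chromosome 19 had a median of -0.55 and ranged from -0.79 to 0.062. Other genes of these chromosomes were not compared, so no pattern by chromosome is drawn.

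Paralogs shifted in their share of each pair of genes, a measure that scaling of the libraries cannot alter. RPL22L1 held 66.2% (65.9% to 66.4%) of the UMIs of RPL22L1 and RPL22 in the combination library, 60.5% (60.3% to 60.8%) in the resistant TPF library and 51.0% (50.7% to 51.2%) in the Fadu library. Of its pair with RPL26, RPL26L1 held 11.9% in the combination library, 10.6% in the resistant TPF library and 6.54% in the Fadu library. RPL39L, paired with RPL39, held 3.15% in the combination library, 4.08% in the resistant TPF library and 1.73% in the Fadu library. RPL7L1, paired with RPL7, held 24.96% in the combination library, 25.1% in the resistant TPF library and 18.1% in the Fadu library. These 4 paralogs thus held a larger share in both resistant libraries than in the Fadu library. The shifts were small for RPL36AL, paired with RPL36A, at 83.4% in the combination library, 84.9% in the resistant TPF library and 82.3% in the Fadu library, and for RPS27L, paired with RPS27, at 9.05% in the combination library, 8.08% in the resistant TPF library and 8.14% in the Fadu library. RPL22L1 and its partner both begin with a tract in the windows above, and RPL26L1 has none where RPL26 has one.

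Genes that share the TOP tract but are not ribosomal proteins were measured for 22 of 24 on the list. Their median log2 ratio was -0.094 between the resistant libraries, with 1 at least 1.2-fold higher and 2 lower, beside 3.26% and 11.2% of all genes. For the resistant TPF library over the Fadu library it was -0.21, with 5 at least 1.2-fold higher and 9 lower, beside 54.1% and 10.8% of all genes. For the combination library over it the median was -0.22, with 3 higher and 11 lower, beside 49.3% and 14.9% of all genes. In both pairs with the Fadu library a smaller share of these genes was higher, and a larger share lower, than of all genes. The ribosome-bound scaffold RACK1 had 581 CPM in the combination library, 695 CPM in the resistant TPF library and 1022 CPM in the Fadu library. NACA, of the complex that meets new chains at the exit tunnel, had 1318 CPM in the combination library, 1439 CPM in the resistant TPF library and 2070 CPM in the Fadu library. The initiation factor subunit EIF2S3 ran the other way, at 116 CPM in the combination library, 99.8 CPM in the resistant TPF library and 66.2 CPM in the Fadu library.

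Ribosome biogenesis factors, which build the particle in the nucleolus, did not follow the ribosomal proteins. Of 39 listed, 30 were at 20 CPM, with a median of -0.14 between the resistant libraries (1 at least 1.2-fold higher, 3 lower, beside 3.26% and 11.2% of all genes). For the resistant TPF library over the Fadu library the median was 0.43, with 21 at least 1.2-fold higher and 2 lower, beside 54.1% and 10.8% of all genes. For the combination library over it the median was 0.27, with 15 higher and 3 lower, close to the 49.3% and 14.9% of all genes. These medians lie near the median gene (0.31 and 0.25), and with TMM factors they became -0.14 and -0.25, where the ribosomal protein genes had -0.98 and -0.88. NCL, nucleolin, had 514 CPM in the combination library, 563 CPM in the resistant TPF library and 330 CPM in the Fadu library, and NOP14 had 36.1 CPM in the combination library, 39.5 CPM in the resistant TPF library and 16.8 CPM in the Fadu library. The 70 measured mitochondrial ribosomal protein genes, encoded in the nucleus for the separate ribosome of mitochondria, had medians of -0.040 between the resistant libraries, 0.073 for the resistant TPF library over the Fadu library (-0.50 with TMM factors) and 0.000046 for the combination library over it (-0.52 with TMM factors). The 8 measured genes of RNA polymerase I and the 13 of mTORC1 and LARP1 had medians of 0.010 and -0.034 between the resistant libraries, and of 0.26 and 0.32 for the resistant TPF library over the Fadu library (-0.31 and -0.25 with TMM factors).

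Among single cells the ribosomal protein share had a median of 14.03% in the combination library, 13.6% in the resistant TPF library and 18.6% in the Fadu library. The 5th and 95th percentiles were 8.13% and 26.2% in the combination library, 8.10% and 19.3% in the resistant TPF library, and 11.96% and 25.1% in the Fadu library, so the libraries overlapped and the combination library had the longest upper tail. The SD of the share was set against that of counting alone at full depth, in cells with at least 5000 UMIs. It was 18.4 times as large in 6954 cells of the combination library (571 shallower cells left out). The ratio was 15.7 in 4657 cells of the resistant TPF library (205 left out) and 15.9 in 5979 cells of the Fadu library (144 left out). With each of these cells thinned to 5000 UMIs, the median cell of either resistant library held a UMI of 77 of the 83 genes. In the Fadu library it held a UMI of 78. Cells called in G1, S and G2/M had medians of 13.9%, 13.7% and 14.6% in the combination library, of 12.9%, 13.5% and 13.9% in the resistant TPF library, and of 18.95%, 18.6% and 18.5% in the Fadu library. G2/M cells were highest in both resistant libraries and G1 cells in the Fadu library, by small steps beside the spread among cells.

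The share was lower in cells with more MALAT1. Pearson's r between the share and log2 MALAT1 was -0.76 in the combination library, -0.59 in the resistant TPF library and -0.41 in the Fadu library, and r with the mitochondrial share was -0.44 in the combination library, -0.38 in the resistant TPF library and -0.41 in the Fadu library, as descriptions over cells that share a library. In cells with MALAT1 under 0.05% of UMIs the median ribosomal protein share was 23.3% in the combination library, 16.8% in the resistant TPF library and 19.99% in the Fadu library. From 0.2% to 0.5% MALAT1 it was 14.9% in the combination library, 15.0% in the resistant TPF library and 17.7% in the Fadu library, and at 2% or more it was 9.92% in the combination library, 10.3% in the resistant TPF library and 11.9% in the Fadu library. The Fadu library was above both resistant libraries in every stratum except the lowest, where the combination library was highest. Barcodes over 20% mitochondrial, which were left out, had medians of 1.94% in the combination library, 1.57% in the resistant TPF library and 1.801% in the Fadu library.

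**Figure D5:**
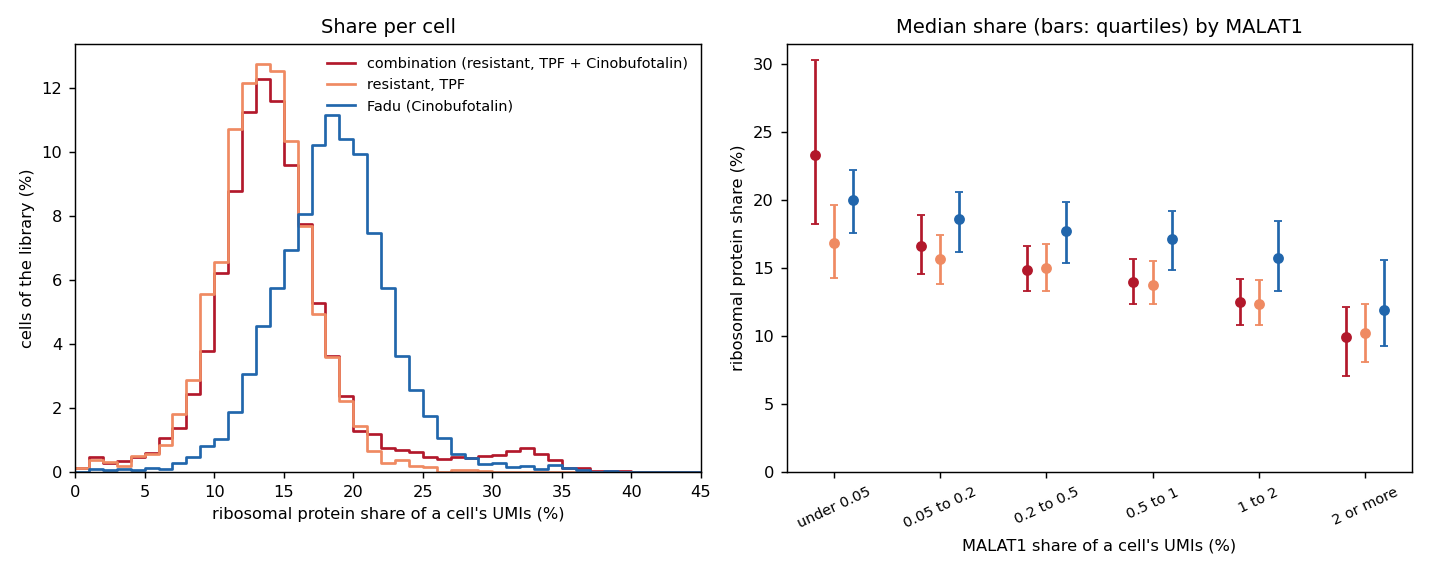
Left, percent of each library's cells (vertical) by ribosomal protein share of the cell's UMIs in steps of 1% (horizontal). Right, median share with quartile bars by MALAT1 share of UMIs; the Fadu curve lies to the right of both resistant curves, the combination curve has a second rise above 30%, and medians fall from left to right in the right panel.

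A group of cells with very high shares stood in the combination library, where 247 of 7525 cells (3.28%) exceeded 30%, against 0 of 4862 in the resistant TPF library and 76 of 6123 (1.24%) in the Fadu library. The 247 cells had a median of 8929 UMIs, 0.828% mitochondrial UMIs and 0.00367% MALAT1, beside 18118.5 UMIs, 3.79% and 0.758% in the other cells of their library. Members with coding sequences of 600 bases or more gave 9.45% of their ribosomal protein UMIs, against 19.9% in the other cells, and members under 300 bases gave 19.7% against 15.4%. The 76 cells of the Fadu library also had little MALAT1 (a median of 0.00399%) but 19.6% of their ribosomal protein UMIs came from the long members, near the 22.6% of the other cells there. These cells were picked by their ribosomal protein share, so that share is a description.

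Large and small subunit UMIs were set against each other in cells with at least 5000 UMIs. Each was divided by the cell's UMIs outside the set and taken as log2. The r between these 2 values was 0.96 in the combination library, 0.96 in the resistant TPF library and 0.95 in the Fadu library. Both values share a divisor, so r is raised wherever the total of the set varies among cells, and it does not show a constant ratio. The median ratio of large to small subunit UMIs was 1.54 in the combination library (5th to 95th percentile 1.29 to 1.85), 1.54 in the resistant TPF library (1.32 to 1.79) and 1.59 in the Fadu library (1.38 to 1.84).

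Some members varied among cells in their share of the ribosomal protein UMIs far beyond counting. The variance over that of counting alone, averaged over the libraries, was highest for RPLP1 (26.1), RPS12 (24.3), RPL12 (16.7), RPL41 (14.6), RPL7A (13.0) and RPS19 (10.4), and lowest for RPL17 (1.09), RPL36A (1.34), RPL26L1 (1.52), RPL31 (1.68), RPL22 (1.71) and RPL7L1 (1.84). This ratio grows with a gene's level. Expressed as the CV left after counting error, RPL39L (66.2%), RPL3 (58.2%), RPL22L1 (56.3%), RPL7L1 (54.1%) and RPS20 (49.9%) led, and RPLP1 had 37.2%. RPS12 and RPLP1 varied together in their shares, with r of 0.68 in the combination library, 0.68 in the resistant TPF library and 0.69 in the Fadu library, and RPL12 followed RPLP1 at 0.39 in the combination library, 0.40 in the resistant TPF library and 0.56 in the Fadu library. RPL7A ran against RPLP1 at -0.42 in the combination library, -0.38 in the resistant TPF library and -0.55 in the Fadu library. Shares of a common total are bound to trade off, which touches the negative values. The share of RPL3 was higher in cells with more MALAT1, with r of 0.54 in the combination library, 0.34 in the resistant TPF library and 0.25 in the Fadu library.

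Outside the set, the genes whose share of the other UMIs went most closely with a cell's ribosomal protein share included FAU, which encodes a ribosomal protein fused to a ubiquitin-like protein and lies outside the symbol rule. FAU had r of 0.80 in the combination library, 0.66 in the resistant TPF library and 0.66 in the Fadu library, among 2820 genes at 50 CPM ordered by their least r over the libraries. SNU13, TOMM7, SLIRP, MRPL52, PFDN5, SNRPF, ATP5MD and COX5A were also among the first 10, with a least r between 0.46 and 0.53. At the other end stood HDAC9, the nuclear RNAs NEAT1 and MALAT1, the mitochondrial transcripts MT-RNR2 and MT-CO1, and SPAG9, EXT1, ZSWIM6, TRIO and AFF4. The 22 TOP genes outside the set had a median r of 0.025 in the combination library, 0.27 in the resistant TPF library and 0.25 in the Fadu library, beside -0.077 in the combination library, 0.017 in the resistant TPF library and -0.024 in the Fadu library for all 2820 genes.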

How the data were processed

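The samples were profiled with 10x 3′ chemistry version 3.1, and the deposited files hold raw UMI counts per gene and barcode. The authors made them with Cell Ranger 7.0 on hg38, per the submitters' processing notes. The sources used here do not give the gene annotation or the use of intronic reads and strand.

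Cells were barcodes with 1000 UMIs or more, 500 genes or more and up to 20% mitochondrial UMIs, 7525 of 8888 in the combination library, 4862 of 6081 in the resistant TPF library and 6123 of 6888 in the Fadu library. Doublets were not removed and free RNA was not corrected for. CPM values were computed from the UMIs summed over the cells of a library, and log2 ratios with 95% Clopper-Pearson intervals were computed (Python 3.11.15, numpy 2.4.6, scipy 1.17.1, pandas 2.3.3). PCR duplicates are collapsed by UMIs, and intervals cover counting error only. With 1 library per group no test was made. Phases were called with scanpy 1.11.5. TMM factors (edgeR 4.0.16) were 1.12 for the combination library, 1.15 for the resistant TPF library and 0.778 for the Fadu library. Gene types, spans and coding lengths came from GENCODE release 29, which held all 58735 feature IDs, and promoter sequences from RefSeq. Ratios, intervals and the variance among cells were tested on simulated data.

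The members and lists were chosen with earlier results of these data known. Named are, in each pair, the 6 highest and 6 lowest members, the 10 most abundant, the paralogs, the stalk and 5S members, RPS6, RPSA and RPS27A, the 6 most and 6 least variable among cells, a few genes of each other list and the 10 highest and 10 lowest genes by correlation with the share. Some of the genes this choice names are not reported here. RPL3L, RPL10L, RPL8, RPL23A and RPL21, and the leading members by remaining CV, were named for their place after their values were seen. Alternatives were other sets of cells, scalings and limits on low genes. Chosen after seeing the data were the sets of cells with MALAT1 at 0.05% to 0.2% and without cells under 0.05%.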

Additional observations from a re-analysis of the deposited data

How the results depend on the processing

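Summed ratios kept their sign under all alternatives. In the order combination, resistant TPF and Fadu, the ribosomal protein share was 14.9%, 13.9% and 19.1% over all deposited barcodes, 15.3%, 14.3% and 19.3% at up to 10% mitochondrial UMIs, 14.8%, 13.6% and 18.5% with equal weight per cell, 15.0%, 13.7% and 18.6% with cells thinned to 5000 UMIs, 15.4%, 13.8% and 19.6% in G1 cells, and 15.0%, 14.2% and 18.8% without cells over 2 times the median UMIs. With MALAT1 at 0.3% to 1% it was 14.7%, 14.6% and 17.7%, at 0.05% to 0.2% 16.9%, 16.1% and 18.7%, and without cells under 0.05% 14.2%, 13.9% and 17.9%, where the last 2 sets were chosen after seeing the data.

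The summed log2 ratios for the combination over the resistant TPF library, the resistant TPF over the Fadu library, and the combination over the Fadu library were 0.10, -0.46 and -0.36 over all barcodes, 0.139, -1.005 and -0.87 with TMM factors, 0.101, -0.51 and -0.41 with totals without mitochondrial and ribosomal protein genes, 0.12, -0.45 and -0.32 with equal weight per cell, 0.129, -0.45 and -0.32 with thinned cells, 0.158, -0.51 and -0.35 in G1 cells, and 0.080, -0.41 and -0.33 without cells over 2 times the median UMIs. At up to 10% mitochondrial UMIs the first and last were 0.093 and -0.34. With MALAT1 at 0.3% to 1% they were 0.015, -0.28 and -0.27, at 0.05% to 0.2% 0.070, -0.22 and -0.15, and without cells under 0.05% 0.033, -0.36 and -0.33.

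The count past 1.5-fold moved between the resistant libraries to 1 in G1 cells, where 0.298% of all genes were higher and 0.544% lower. For the resistant TPF over the Fadu library it was 74 with TMM factors, 27 with the reduced totals, 29 in G1 cells and 10 at 0.3% to 1% MALAT1, against 16. In that order the shares of all genes higher were 7.05%, 27.2%, 31.6% and 18.8%, against 31.4%. Those lower were 24.5%, 3.40%, 2.58% and 2.70%, against 2.32%. For the last pair the count was 65 with TMM factors, against 19. All genes higher and lower there were 8.32% and 27.5%, against 29.2% and 4.42%. The cause was not tested, beyond the shift that TMM gives every gene. In the 3 pairs 59, 62 and 59 of the 83 members kept their sign under every alternative. This was not counted over all genes. TMM factors lower every ratio over the Fadu library, so a negative ratio there keeps its sign under them. No paired analysis was possible because each group has 1 library. Counting error is small at this depth, and variation between cultures was not measured.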
